A study of Mus musculus with 6 samples.

Results

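The genes described here are 32 antioxidant and thiol redox genes, a list of named enzymes with a cystine transporter and regulators, chosen by gene name from the 35853 genes of the tables, and 30 of them were among the 11406 genes with enough counts to be tested. They fell into 7 groups by role: 3 regulators, 5 genes of glutathione synthesis and recycling, 6 glutathione-using enzymes, 6 genes of the thioredoxin system and the methionine sulfoxide reductases, 7 peroxiredoxins with sulfiredoxin, 3 genes of superoxide dismutases and catalase, and 2 enzymes of heme and quinone detoxification. Their RNA was measured by poly(A) sequencing in blood neutrophils of wild-type BALB/C mice. Every mouse had carried an orthotopic tumour of 4T1 cells, a mouse mammary carcinoma line, for 4 weeks when blood was taken, and no tumour-free group is analysed here. Red cells were lysed, and Ly6G+ cells (Ly6G is carried on the surface of mouse neutrophils) were then sorted for high or low surface Ly6C, giving 3 Ly6C-high and 3 Ly6C-low libraries. The labels do not say whether libraries of a group came from separate or pooled mice, so the p-values below reflect only how much the libraries vary, and that variation may be technical.

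Neutrophils make superoxide and hydrogen peroxide with their NADPH oxidase and carry enzymes that limit damage to their own proteins and lipids. Glutathione and thioredoxin are the thiol systems that hand electrons from NADPH to peroxidases and to oxidised proteins: glutathione peroxidases and glutaredoxin draw on glutathione, and most peroxiredoxins and the methionine sulfoxide reductases draw on thioredoxin. Many of the genes are targets of NRF2, the product of Nfe2l2, which KEAP1 holds at low levels until electrophiles or oxidants modify it, and which binds antioxidant response elements in promoters.

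The libraries held between 17192372 and 20973623 estimated counts. As a check of the sort, Ly6c1 was at 47.9 ± 7.73 CPM (counts scaled to library size with the TMM method) in Ly6C-high against 5.72 ± 1.83 CPM in Ly6C-low cells, and Ly6c2 at 139 ± 22.9 against 18.6 ± 5.15 CPM (SD, n = 3 each). The neutrophil genes S100a9 and S100a8 held 197900 and 147400 TPM (transcript abundance corrected for length and scaled to the same total in each library) in the Ly6C-high libraries and 182200 and 142500 TPM in the Ly6C-low libraries. The summed TPM of 12 neutrophil markers was 372200 to 376500 in the Ly6C-high and 341100 to 359400 in the Ly6C-low libraries. S100a9 held 52.4% of that sum and S100a8 most of the rest. Of the 11 markers tested, 9 had more RNA in the Ly6C-high cells and 2 had less, among them Csf3r (2323 against 2797 TPM). Ly6C-low replicate 3 stood apart, at 38.02 on the axis that held 32.8% of the variance, where the other 5 libraries lay between -19.65 and 3.91, so values that change much without it are also given without it. In bulk RNA, fewer cells of a type and less RNA per cell cannot be told apart.

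The promoters of 3 genes are shown because these genes, Gclm, Mgst1 and Txnrd1, were among the 5 with the smallest unadjusted p in the comparison below and their windows hold the core of the antioxidant response element. The windows are those of RefSeq on build GRCm38.p6, from 250 bases before to 50 bases after an annotated start. The core was searched as TGACNNNGC on both strands. Capitals mark the match, which in all 3 windows is on the opposite strand, so that the capitals are its reverse complement.
Gclm, chr3:122245307-122245606, plus strand: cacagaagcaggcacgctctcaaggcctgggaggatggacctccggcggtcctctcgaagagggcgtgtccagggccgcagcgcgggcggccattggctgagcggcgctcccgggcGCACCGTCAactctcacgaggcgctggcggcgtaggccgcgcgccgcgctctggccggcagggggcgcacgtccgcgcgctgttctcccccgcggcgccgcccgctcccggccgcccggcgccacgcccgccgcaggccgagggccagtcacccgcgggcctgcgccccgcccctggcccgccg
Mgst1, chr6:138140277-138140576, plus strand: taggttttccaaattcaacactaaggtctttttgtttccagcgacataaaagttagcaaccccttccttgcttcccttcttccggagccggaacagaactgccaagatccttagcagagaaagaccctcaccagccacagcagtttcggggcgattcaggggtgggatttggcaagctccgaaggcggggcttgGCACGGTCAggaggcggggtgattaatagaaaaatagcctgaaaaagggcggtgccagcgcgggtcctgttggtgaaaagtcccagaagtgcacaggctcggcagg
Txnrd1, chr10:82858956-82859255, plus strand: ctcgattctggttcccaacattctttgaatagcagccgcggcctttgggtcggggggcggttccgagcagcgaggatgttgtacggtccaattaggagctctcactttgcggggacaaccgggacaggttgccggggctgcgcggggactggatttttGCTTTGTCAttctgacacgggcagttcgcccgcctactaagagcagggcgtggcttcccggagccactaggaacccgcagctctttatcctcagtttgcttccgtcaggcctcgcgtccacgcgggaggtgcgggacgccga
The match begins at -134 from the start of Gclm, at -56 from that of Mgst1 and at -92 from that of Txnrd1. It was in 1 of the 2 windows of Mgst1 and in 1 of the 3 windows of Txnrd1. A RefSeq window was held for 27 of the 32 genes, and 7 had the core in at least 1 window, the others being Nfe2l2, Prdx1, Sod1 and Srxn1. That made 7 of 34 windows (20.6%), beside 12.4% of all 32851 windows of the same length. Of the other genes with a small p, Glrx had no match in its windows, and Msra is named only. These letters describe the windows and do not show binding.

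The redox transcripts of both groups were dominated by a few genes. Msrb1, Gpx1, Prdx5, Glrx, Txn1 and Txnip, the 6 most abundant, held 82.4% of the TPM summed over the 32 genes, and they ranked 50, 53, 61, 99, 105 and 188 by mean TPM among all genes. Of the 32 genes, 13 had a mean above 100 TPM and 11 a mean under 10 TPM. Msrb1 was the highest in each of the 6 libraries, although its range touched that of Gpx1. The order differed between libraries for Gpx1 and Prdx5, for Glrx and Txn1 and for Txnip and Mgst1, so it is not set within those pairs. The 6 selenoprotein genes (Gpx1, Gpx3, Gpx4, Txnrd1, Txnrd2 and Msrb1) held 38.8% to 41.9% of the summed TPM by library. Txn2, Txnrd2, Prdx3 and Sod2, whose products act chiefly in mitochondria, were grouped after their values were seen and held 0.434% to 0.601%. That share leaves out genes whose products are found there only in part, such as Prdx5, which alone held 16.8%. The summed TPM of all 32 genes was 9038, 9099 and 8950 in the Ly6C-high and 9150, 9173 and 8123 in the Ly6C-low libraries. Ly6C-low replicate 3 had the lowest sum, and the other Ly6C-low libraries were above all Ly6C-high libraries.

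**Figure D1:**
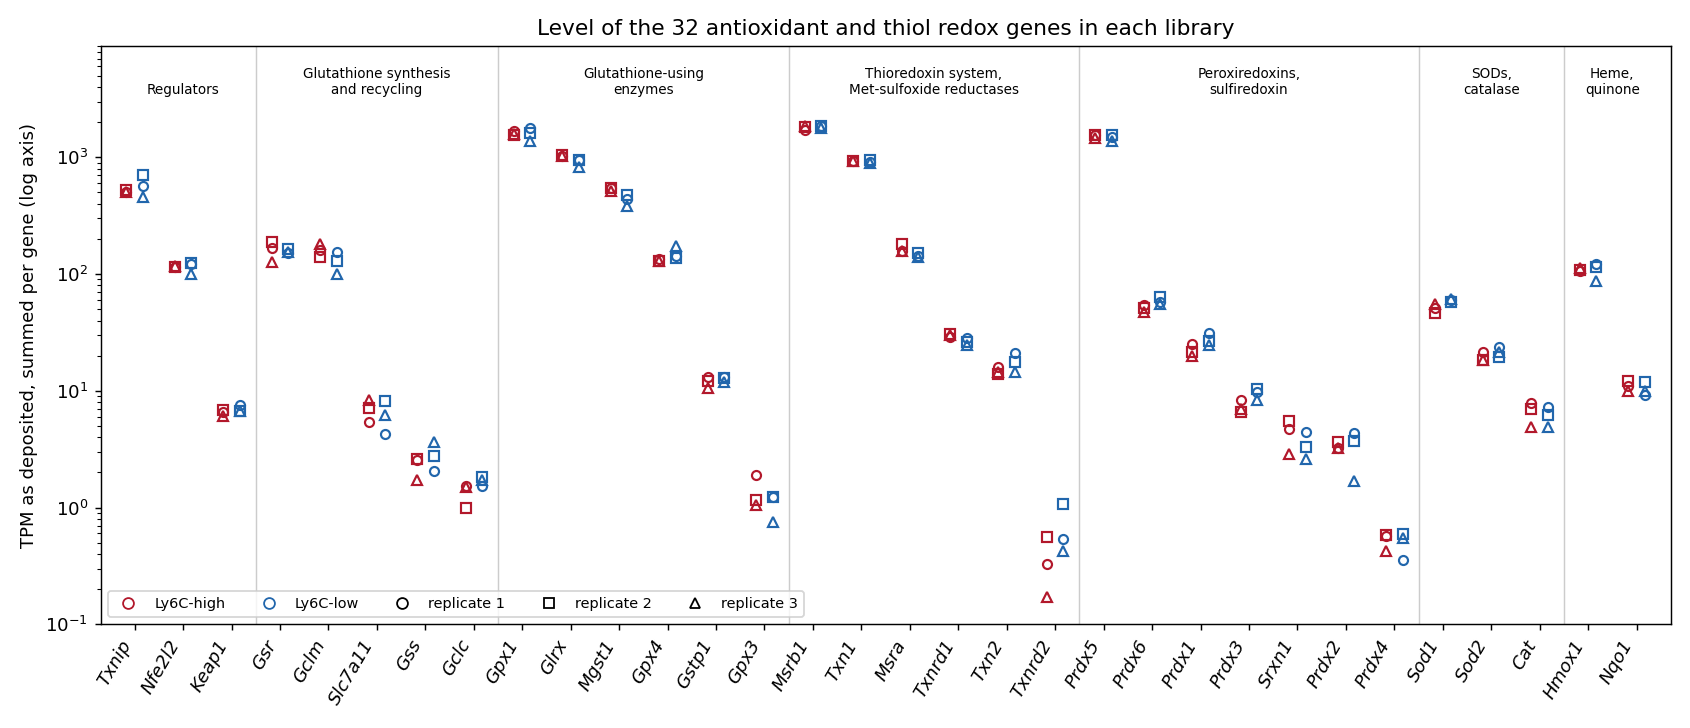
Level of each of the 32 genes, as deposited TPM summed per gene on a log axis, in 3 Ly6C-high (red) and 3 Ly6C-low (blue) libraries, with the replicate by symbol and the genes ordered by role and level. In several roles 1 gene lies far above the rest, as Prdx5 does among the peroxiredoxins, and the 2 groups lie close together for every gene with a mean above 100 TPM.

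Between the groups the antioxidant genes differed little. None of the 30 tested passed an adjusted p of 0.05 in edgeR's quasi-likelihood test with Benjamini-Hochberg adjustment over all genes, which 4 of the 11406 genes (0.0351%) passed. At an unadjusted p under 0.05 there were 5, Mgst1, Glrx, Gclm, Txnrd1 and Msra, all with more RNA in the Ly6C-high cells. These were 16.7% of the 30, where 14.3% of all genes tested reached that p, 6.92% with more and 7.34% with less RNA in those cells, so the share in both directions together was near the background. The shared direction depended on the scaling. By library size alone 5 genes also reached that p in edgeR, where 17.5% of all genes tested did. Of these, Mgst1, Glrx and Gclm had more RNA in the Ly6C-high cells, and Prdx1 and Prdx3 had less. Txnrd1 and Msra did not reach it with that scaling. DESeq2, which gave an adjusted p to 26 of the 30 (not to Prdx2, Gpx3, Gss and Gclc), called 1, Mgst1, where it called 1.48% of 7425 genes. Limma voom called 0 of the 30 and 0.0263% of all genes tested. The 3 Ly6C-high libraries did not overlap the 3 Ly6C-low libraries in 5 genes, Glrx, Mgst1, Txn1, Txnrd1 and Msra, again 16.7%, where 21.1% of all genes tested did not overlap, 10.3% higher and 10.9% lower. All 5 were above the Ly6C-low libraries.

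The log2 fold change (Ly6C-high over Ly6C-low, on TMM-scaled counts) was above 0 for 20 of the 30 genes and below 0 for 10, and 49.2% of all genes tested were above 0. Its median was 0.10, with quartiles of -0.09 and 0.19, beside a median of -0.0045 over all genes tested. That difference rested on Ly6C-low replicate 3: without it the median was -0.0091, with 14 genes above 0 and 16 below, and the median of all genes was 0.0017. Scaling by library size alone also gave 14 above 0 and 16 below, with medians of -0.0005 for the 30 genes and -0.11 for all genes, so that the 30 lay 0.11 above all genes, as they lay 0.10 above them with TMM. The values ran from -0.42 for Gss to 0.46 for Gclm. The 95% interval stayed inside 2-fold, up or down, for all 30 genes, which held for 78.0% of all genes tested and for 96.3% of those with a mean of at least 5 CPM. It lay within 1.5-fold for 21 of 30, against 53.3% of all genes tested. Where the mean was at least 5 CPM, the 1.5-fold bound held for 21 of the 26 redox genes and for 80.0% of 7261 genes. The interval reached beyond 1.5-fold for Gclc, Gclm, Gss, Gpx3, Mgst1, Prdx2, Prdx3, Srxn1 and Cat.

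**Figure D2:**
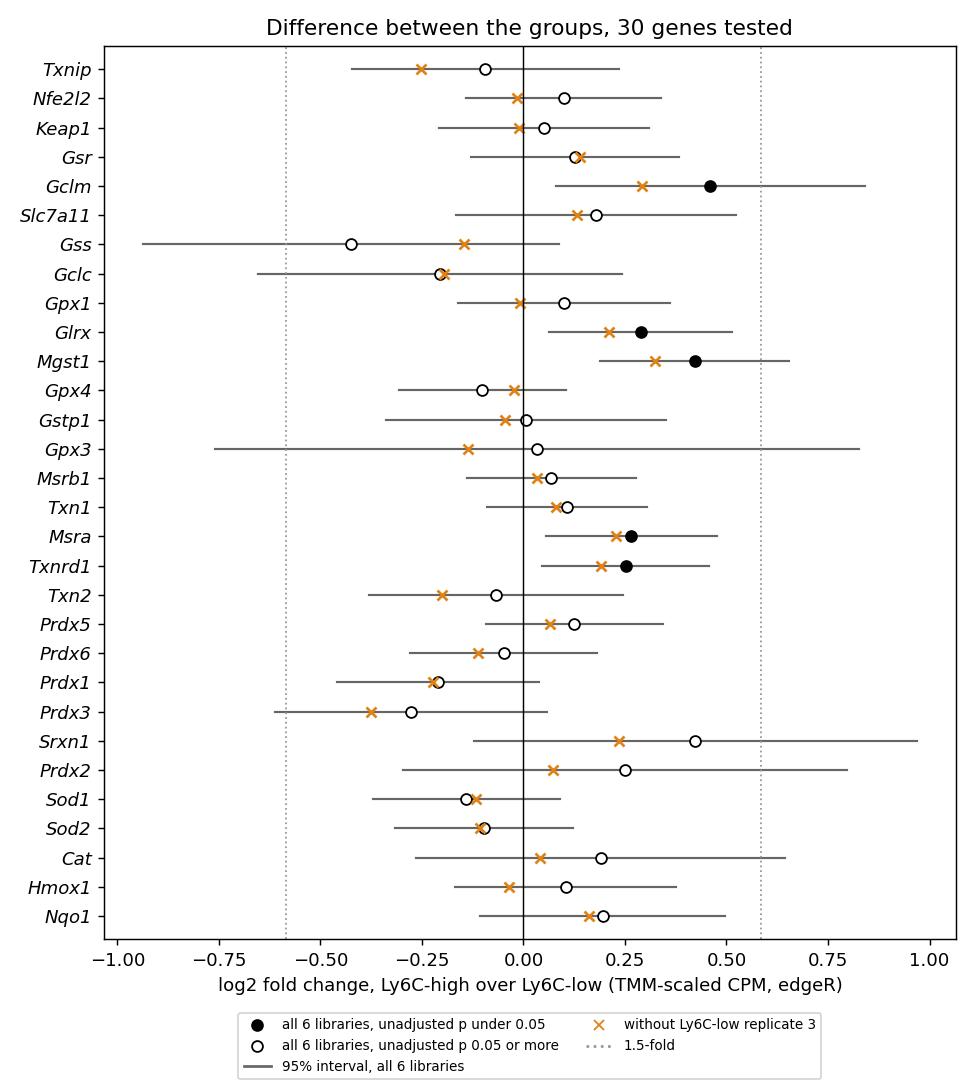
Log2 fold change of the 30 genes tested, Ly6C-high over Ly6C-low, with its 95% interval computed from the edgeR fit, filled where the unadjusted p was under 0.05, and crosses for the value without Ly6C-low replicate 3. Every interval ends within a 2-fold change, and the crosses lie to the left of the circles for most genes.

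Among the regulators, Txnip, whose product binds and inhibits thioredoxin, held 81.6% of the TPM. Txnip measured 502, 523 and 505 TPM in the Ly6C-high libraries and 573, 702 and 454 TPM in the Ly6C-low libraries. The Ly6C-low libraries spread on both sides of the Ly6C-high libraries, which lay close together. Its log2 fold change was -0.09 ± 0.15 (SE). Without Ly6C-low replicate 3 it was -0.25 (edgeR unadjusted p 0.0117, adjusted p 0.27), and with 1 library left out at a time it ranged from -0.25 to 0.08. Nfe2l2, which encodes NRF2, had the smallest p of the regulators and measured 114, 115 and 118 TPM against 123, 124 and 100 TPM, with overlapping groups. Its log2 fold change was 0.10 ± 0.11 (SE; adjusted p 0.719), and -0.02 without Ly6C-low replicate 3. Keap1, the adaptor that directs NRF2 to degradation, measured between 6.12 and 7.61 TPM, with a log2 fold change of 0.05 that was -0.01 without that library. Nfe2l2 transcripts were 15.0 to 19.3 times those of Keap1 per library.

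RNA levels were uneven between the subunits of the rate-limiting enzyme of glutathione synthesis. Gclm, the modifier subunit of glutamate-cysteine ligase, measured 160, 141 and 182 TPM in the Ly6C-high and 156, 129 and 101 TPM in the Ly6C-low libraries, whereas Gclc, the catalytic subunit, measured between 1.00 and 1.81 TPM. The TPM ratio of Gclm to Gclc lay between 58.4 and 141 in the 6 libraries. In estimated counts, which are not corrected for length, Gclm had 1588 to 3390 and Gclc 58 to 98 per library. Gclm had the largest log2 fold change of the 30 genes, 0.46 ± 0.17 (SE), from 155 ± 16.0 CPM against 112 ± 27.4 CPM (SD over 3 libraries). The groups overlapped, because Ly6C-low replicate 1 (139 CPM) was above Ly6C-high replicate 2 (136 CPM), and Ly6C-low replicate 3 was lowest at 84.2 CPM. The edgeR unadjusted p was 0.0235 and the adjusted p 0.289. Without Ly6C-low replicate 3 the log2 fold change was 0.29, and without Ly6C-low replicate 1 it was 0.64. Of the Gclm TPM, 82.1% to 91.4% was on protein-coding transcripts, and on average 43.8% and 36.1% were on Gclm-206 and Gclm-203. These are 1002 and 1088 bases long, beside 5589 bases for Gclm-201 and 3423 bases for Gclc-201. The TPM ratio to Gclc therefore depends on how reads were divided among the Gclm transcripts. Gclc had a log2 fold change of -0.21 ± 0.20 (SE) from 3.09 to 5.13 CPM, so its interval, -0.65 to 0.24, was wide.

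Gsr, glutathione reductase, which returns oxidised glutathione to its thiol form, was the most abundant of these 5 genes with 50.6% of their TPM. It measured 167, 190 and 127 TPM in the Ly6C-high and 151, 165 and 153 TPM in the Ly6C-low libraries, so the Ly6C-high libraries held both the highest and the lowest value. Its log2 fold change was 0.13 ± 0.12 (SE), and 0.26 without Ly6C-high replicate 3. Gss, glutathione synthetase, had a mean of 2.56 TPM and a log2 fold change of -0.42 ± 0.23 (SE; adjusted p 0.442). Ly6C-low replicate 3 was the highest at 3.67 TPM, and without it the log2 fold change was -0.15. Slc7a11, the cystine transporter subunit that supplies cysteine for glutathione, measured 4.24 to 8.41 TPM, with a log2 fold change of 0.18 ± 0.15 (SE). Both extremes of its leave-out values came from the Ly6C-low libraries, 0.03 without replicate 1 and 0.39 without replicate 2 (edgeR unadjusted p 0.00723, adjusted p 0.221). Protein-coding transcripts held 48.0% to 83.5% of the TPM of Slc7a11, 42.0% to 89.8% of that of Gss and 72.3% to 83.1% of that of Gsr. On coding transcripts Slc7a11 measured 4.34, 4.86 and 4.04 TPM in the Ly6C-high and 3.54, 5.61 and 3.92 TPM in the Ly6C-low libraries. The TPM summed over the 5 genes was 336, 341 and 321 in the Ly6C-high and 315, 307 and 265 in the Ly6C-low libraries. The groups did not overlap in that sum, which includes non-coding transcripts. On coding transcripts alone they did, as Ly6C-high replicate 3 then lay just below Ly6C-low replicate 1. In these libraries coding Gclm measured 149 and 135 TPM and coding Gsr 102 and 116 TPM.

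Mgst1, microsomal glutathione S-transferase 1, a membrane enzyme that conjugates glutathione and reduces lipid peroxides, had the smallest p of all 30. It measured 548, 545 and 513 TPM in the Ly6C-high and 441, 472 and 384 TPM in the Ly6C-low libraries. On the scale used for the test the values were 387, 370 and 359 CPM against 289, 306 and 238 CPM, so every Ly6C-high library was above every Ly6C-low library. The fold was 1.34, with a 95% interval of 1.14 to 1.57, and the log2 fold change was 0.42 ± 0.11 (SE). The edgeR unadjusted p was 0.00201 and the adjusted p 0.192, and with the DESeq2 Wald test the adjusted p was 0.0233. Without Ly6C-low replicate 3 the log2 fold change was 0.32 (edgeR unadjusted p 0.00113). Mgst2, a related transferase outside the 32 genes, was at 34.1 ± 1.45 CPM in Ly6C-high and 22.8 ± 3.53 CPM in Ly6C-low cells, a log2 fold change of 0.58 ± 0.12 (SE; edgeR adjusted p 0.143).

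Glrx, glutaredoxin 1, which removes glutathione from protein thiols, was at 1032, 1056 and 1034 TPM in the Ly6C-high and 949, 952 and 826 TPM in the Ly6C-low libraries. In CPM the values were 1131, 1138 and 1110 against 978, 970 and 819, without overlap and with a spread of only 14.8 CPM (SD) among the Ly6C-high libraries. Its log2 fold change was 0.29 ± 0.10 (SE; edgeR unadjusted p 0.0164, adjusted p 0.26), and 0.21 without Ly6C-low replicate 3. Gpx1, the cytosolic glutathione peroxidase, held 49.8% of the TPM of the glutathione-using enzymes. It measured 1677, 1559 and 1595 TPM against 1789, 1601 and 1379 TPM. The Ly6C-low libraries held its highest and its lowest value, and its log2 fold change of 0.10 ± 0.12 (SE) was -0.0081 without Ly6C-low replicate 3. Gpx4, which reduces lipid hydroperoxides in membranes, measured 130 to 175 TPM with a log2 fold change of -0.10 (-0.02 without Ly6C-low replicate 3 and -0.21 by library size alone), and Gpx1 was 7.9 to 12.6 times as abundant. Gstp1, a cytosolic glutathione transferase, measured 10.6 to 13.1 TPM with a log2 fold change of 0.01 (-0.05 without Ly6C-low replicate 3). Gpx3, the secreted peroxidase, measured 0.752 to 1.91 TPM, with a log2 fold change of 0.03, an interval from -0.76 to 0.83 and a value of -0.14 without that library. Gstp1 and Gpx4 share 38.5% and 38.9% of their words of 31 bases with other genes, chiefly Gstp2 and Gpx4-ps2, so their division of reads is uncertain, and those partners were at 0.173 and 0.0649 TPM. Among the other genes, the largest shares were 22.1% for Sod2, whose partner Rps6ka2 was at 14.7 TPM beside 20.5 TPM for Sod2, and 14.8% for Prdx1. These shares cover all annotated transcripts of a gene. By transcript they were 74.1% for Gpx4-202, 85.0% for Gpx4-207, 67.5% for Gstp1-201, 59.6% for Prdx1-205 and 35.4% for Sod1-201. The chief partners of Prdx1 and Sod1 were at 0.0259 and 0.039 TPM. For Sod2 the share was 49.7% for Sod2-202, with 10.8% of its TPM, and 2.93% for the coding Sod2-201.

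**Figure D3:**
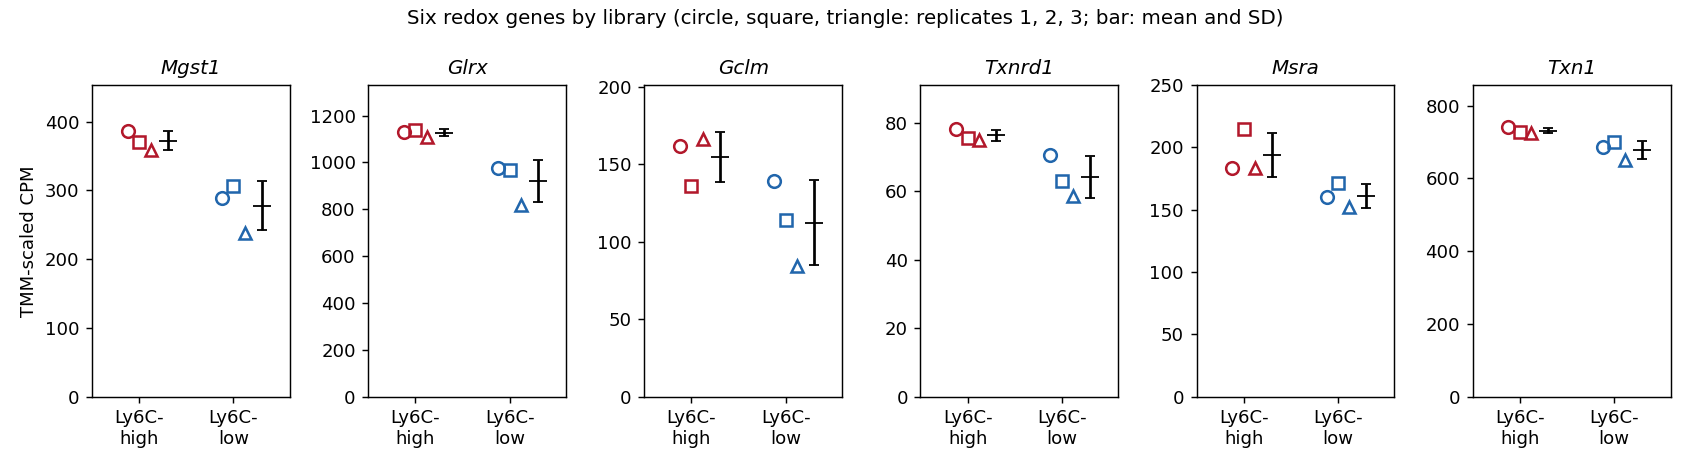
TMM-scaled CPM, on linear axes from 0, of Mgst1, Glrx, Gclm, Txnrd1, Msra and Txn1 in each library, with the mean and SD of the 3 libraries of a group beside the points. The groups do not overlap in 5 of the 6 genes, Gclm being the exception, and Ly6C-low replicate 3 (triangle) is the lowest library in all 6.

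In the thioredoxin system, Txn1, the cytosolic thioredoxin, varied little. It measured 923, 923 and 929 TPM in the Ly6C-high and 906, 941 and 899 TPM in the Ly6C-low libraries, which overlap in TPM. In CPM it measured 741, 728 and 726 against 686, 700 and 651, without overlap, and its log2 fold change was 0.11 ± 0.09 (SE; adjusted p 0.623). Scaled by library size alone that value was 0.0021. Txnrd1, the cytosolic reductase that recharges thioredoxin with electrons from NADPH, measured 28.9, 30.5 and 29.9 TPM against 28.6, 26.3 and 24.7 TPM. In CPM the values were 78.3, 75.8 and 75.2 against 70.8, 63.2 and 58.6, without overlap. Its log2 fold change was 0.25 ± 0.09 (SE; edgeR unadjusted p 0.0203, adjusted p 0.278). Leaving out Ly6C-low replicate 3 gave 0.19 (unadjusted p 0.0527), and library size alone gave 0.15. Transcripts of Txn1 were 30.2 to 36.5 times those of Txnrd1. The mitochondrial counterparts were scarce: Txn2 measured 13.9 to 21.02 TPM with a log2 fold change of -0.07 (-0.20 without Ly6C-low replicate 3), and Txnrd2, at 0.173 to 1.08 TPM from 5 to 10 counts per library, was under the filter.

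The methionine sulfoxide reductases repair oxidised methionine, Msra and Msrb1 acting on opposite stereoisomers. Msrb1, a selenoprotein, was the most abundant of the 32 genes, at 1712, 1812 and 1842 TPM in the Ly6C-high and 1873, 1846 and 1771 TPM in the Ly6C-low libraries. The groups overlapped, and its log2 fold change was 0.07 ± 0.10 (SE), 0.03 without Ly6C-low replicate 3 and -0.04 by library size alone. Msra measured 157, 182 and 157 TPM against 143, 152 and 140 TPM, all Ly6C-high libraries being above all Ly6C-low libraries. In CPM it measured 184, 214 and 184 against 161, 171 and 152, a log2 fold change of 0.27 ± 0.10 (SE; edgeR unadjusted p 0.0175, adjusted p 0.265). With 1 library left out at a time its log2 fold change stayed between 0.19 and 0.31, and its unadjusted p reached 0.118. By library size alone its log2 fold change was 0.16 (edgeR unadjusted p 0.0824). Msrb1 exceeded Msra by 9.95 to 13.1 times per library.

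Prdx5, a peroxiredoxin found in cytosol, mitochondria and peroxisomes, held 94.0% of the TPM of the peroxiredoxins and sulfiredoxin. It measured 1544, 1566 and 1463 TPM in the Ly6C-high and 1492, 1558 and 1391 TPM in the Ly6C-low libraries, overlapping, and its log2 fold change was 0.13 ± 0.10 (SE), 0.065 without Ly6C-low replicate 3 and 0.02 by library size alone. Prdx1, a cytosolic peroxiredoxin, had the smallest p of this group and measured 25.2, 21.4 and 20.0 TPM against 31.03, 26.8 and 24.5 TPM. Only Ly6C-high replicate 1 was above the lowest Ly6C-low library, and the log2 fold change was -0.21 ± 0.11 (SE; adjusted p 0.434). By library size alone it was -0.32 (edgeR unadjusted p 0.0195). Prdx3, the mitochondrial peroxiredoxin, measured 8.28, 6.60 and 7.04 TPM against 9.77, 10.3 and 8.31 TPM. Its log2 fold change was -0.28 ± 0.15 (SE; adjusted p 0.441), and -0.38 without Ly6C-low replicate 3 (edgeR unadjusted p 0.0224). Library size alone also gave -0.38 (edgeR unadjusted p 0.0265). Srxn1, sulfiredoxin, which restores overoxidised peroxiredoxins, measured 4.68, 5.47 and 2.85 TPM against 4.45, 3.28 and 2.62 TPM, with a log2 fold change of 0.42 ± 0.24 (SE) that was 0.24 without Ly6C-low replicate 3. Ly6C-high replicate 3 was near the lowest Ly6C-low library, and the interval of Srxn1, -0.12 to 0.97, was among the widest.

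Prdx6, which reduces phospholipid hydroperoxides, measured 47.4 to 63.2 TPM with a log2 fold change of -0.05, and Prdx2, at 1.70 to 4.37 TPM, had a value of 0.25 ± 0.25 (SE). Without Ly6C-low replicate 3 these were -0.11 and 0.07. Prdx4, the peroxiredoxin of the endoplasmic reticulum, was under the filter at 5 to 8 counts per library. Only 11.3% to 15.6% of the TPM of Prdx6 lay on its protein-coding transcripts, a mean of 7.12 TPM of 54.8 TPM, and the rest was on transcripts annotated as non-coding or subject to nonsense-mediated decay. The level of Prdx6 as a gene is therefore not that of its coding transcripts. For Prdx2, 37.2% to 99.8% of the TPM was on protein-coding transcripts.

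Superoxide dismutases and catalase were low beside Gpx1 and Prdx5, the most abundant peroxidases. Sod1, the cytosolic copper-zinc dismutase, held 67.2% of their TPM and measured 50.8, 46.5 and 54.9 TPM in the Ly6C-high and 59.9, 57.3 and 60.8 TPM in the Ly6C-low libraries. In TPM the groups did not overlap, the Ly6C-low libraries being higher, but in CPM they did (18.9 to 22.1 against 21.7 to 23.4 CPM), and the log2 fold change was -0.14 ± 0.11 (SE; adjusted p 0.578), or -0.25 by library size alone. Sod2, the mitochondrial manganese dismutase, measured 18.4 to 23.7 TPM with a log2 fold change of -0.10 (-0.20 by library size alone), and only 12.2% to 17.5% of its TPM was on protein-coding transcripts. Cat, which encodes catalase, measured 7.82, 7.03 and 4.92 TPM against 7.29, 6.25 and 4.94 TPM, with a log2 fold change of 0.19 ± 0.20 (SE) that was 0.04 without Ly6C-low replicate 3. Catalase is also abundant in red cells, and the summed TPM of 11 erythroid markers, led by Hbb-bs and Hba-a2, was likewise lowest in Ly6C-high replicate 3 (695) and next lowest in Ly6C-low replicate 3 (1743), where the other 4 libraries lay between 1975 and 2521. The part of red-cell RNA in the values of Cat was not tested. The TPM summed over Sod1, Sod2 and Cat was 79.9, 71.9 and 78.3 in the Ly6C-high and 90.9, 83.1 and 87.3 in the Ly6C-low libraries, without overlap. Summed in CPM the groups did overlap. Sod1, Sod2 and Cat were at 20.7, 35.1 and 18.4 CPM in Ly6C-high replicate 1, beside 21.7, 33.3 and 13.6 CPM in Ly6C-low replicate 2.

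Of the detoxifying enzymes, Hmox1, heme oxygenase 1, held 91.0% of the TPM and measured 106, 109 and 112 TPM in the Ly6C-high and 121, 114 and 87.8 TPM in the Ly6C-low libraries. The Ly6C-low libraries lay on both sides of the Ly6C-high libraries, and the log2 fold change of 0.10 ± 0.12 (SE) was -0.04 without Ly6C-low replicate 3. Nqo1, the NADPH quinone oxidoreductase often read as an NRF2 target, had the smaller p of the pair. It measured 11.1, 12.2 and 9.92 TPM against 9.17, 11.8 and 10.1 TPM, with a log2 fold change of 0.19 ± 0.14 (SE; adjusted p 0.556).

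The roles, compared by their summed TPM, moved by small amounts and without a common direction. The log2 ratio of the group means was 0.17 for glutathione synthesis and recycling, 0.11 for the glutathione-using enzymes, -0.0057 for the thioredoxin system and methionine sulfoxide reductases and 0.03 for the peroxiredoxins with sulfiredoxin. It was -0.15 for the regulators, -0.18 for superoxide dismutases and catalase and 0.02 for heme and quinone detoxification, and 0.03 over all 32 genes. Without Ly6C-low replicate 3 these ratios were 0.10, 0.03, -0.03, -0.02, -0.28, -0.18, -0.09 and -0.02 in the same order, so the signs of the peroxiredoxin, detoxification and total sums turned. Left without its most abundant gene, a role had a value of 0.30 for glutathione synthesis and recycling (Gsr), -0.21 for the peroxiredoxins (Prdx5) and -0.09 for the dismutases and catalase (Sod1). Among the regulators, the Ly6C-high and Ly6C-low means were 510 and 577 TPM for Txnip, 115.8 and 115.6 for Nfe2l2, and 6.54 and 6.99 for Keap1. For Gpx1 they were 1610 and 1590 TPM, beside 3331 and 3097 for the sum of the glutathione-using enzymes. TPM are shares of a library, and the sum of the neutrophil markers, mostly S100a9 and S100a8, held a larger share in the Ly6C-high libraries, as given above. The median log2 fold change by role on TMM-scaled counts lay between -0.10 for the dismutases and catalase and 0.15 for heme and quinone detoxification. By library size alone the medians ran from -0.20 to 0.05, and those of the regulators, the glutathione-using enzymes and the peroxiredoxins turned below 0. Without Ly6C-low replicate 3 the medians of the same 3 roles were also below 0, at -0.02, -0.02 and -0.02, and that of heme and quinone detoxification was 0.06.

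Single libraries moved many of the genes together. Relative to each gene's mean log2 CPM, the 30 genes had a median deviation of -0.19 in Ly6C-low replicate 3, where the other 5 libraries had medians from -0.02 to 0.08. That library was the lowest of the 6 for 17 of the 30 genes and the highest for 3, among them Gss and Gpx4. Ly6C-high replicate 3 was the lowest for 6 genes, including Gsr, Prdx1 and Prdx6. These counts were not made over all genes tested, so they do not set the redox genes apart from other genes. Ly6C-low replicate 3 also stood apart over all genes tested, as given above.

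**Figure D4:**
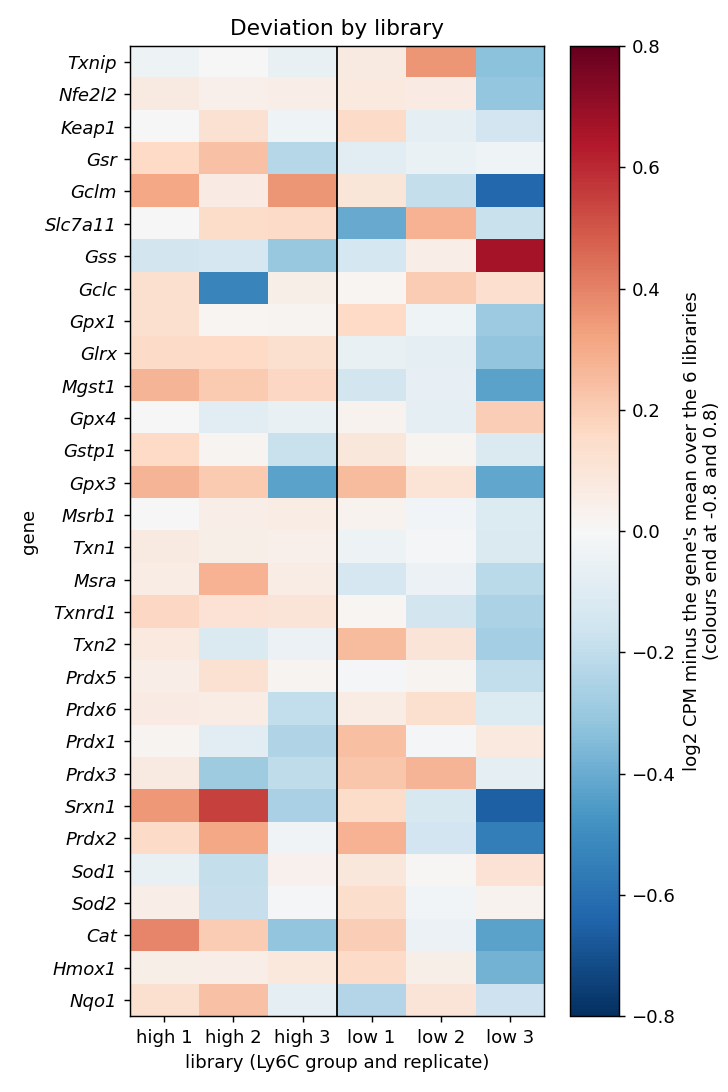
Log2 CPM of each of the 30 genes tested minus its mean over the 6 libraries, from blue (lower) to red (higher), by library, with a line between the Ly6C-high and Ly6C-low groups. The column of Ly6C-low replicate 3 is mostly blue, and the Gss cell in it is the deepest red.

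Beyond the 32 genes, 118 other genes of these pathways were matched by name and 90 were tested, and 0 passed an adjusted p of 0.05 with edgeR, while 6 were higher (6.67%) and 2 lower (2.22%) at an unadjusted p under 0.05, beside 6.92% and 7.34% of all genes tested. DESeq2 called 1 of the 64 to which it gave an adjusted p, Mgst2, and voom called 0. Among other glutathione enzymes 1 was higher (Mgst2) and 1 lower of 21. The lower gene was Glrx5, a mitochondrial glutaredoxin of iron-sulfur cluster assembly, at -0.73 ± 0.22 (SE) from 2.22 ± 0.245 against 3.70 ± 0.679 CPM, and Hagh had a value of -0.23. Among 22 other thioredoxin-fold, sulfoxide and superoxide enzymes 4 were higher (18.2%) and 0 lower, and the genes with the smallest p were Txndc17 (0.28), Tmx3 (0.32) and Nxn (0.40), all of the thioredoxin fold. Among 16 other selenoprotein and selenium genes 0 were higher and 1 lower, Selenos, at -0.40, with -0.34 for Sephs1 and -0.85 for the low-count Eefsec. None of 12 other NRF2 regulators reached that p with edgeR, and the values were 0.20 for Nfe2l1, 0.21 for Mafg and 0.15 for Cul3. Among 19 other NRF2 target and NADPH supply genes 1 was higher, Idh1, which makes NADPH, at 0.24 ± 0.10 (SE). G6pdx and Pgd, the NADPH-producing enzymes of the pentose phosphate pathway, had values of 0.31 and 0.22 and adjusted p of 0.367 and 0.472.

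Markers of other blood cells were also measured, and single genes carried several of their sums. The summed TPM of 9 eosinophil markers, led by Siglecf and Ear2, was 19.2 to 24.0 in the Ly6C-high and 39.4 to 44.1 in the Ly6C-low libraries, and that of 8 basophil and mast cell markers, led by Kit and Mcpt8, was 20.4 to 36.1 against 48.2 to 65.4, with 72.5% of it on Kit. The eosinophil genes Prg2 and Epx were at 0 in every Ly6C-high library. The sum of 10 monocyte markers, 63.3% of it on Csf1r and most of the rest on Ctss, was 154 to 156 against 176 to 196. Low-level monocyte genes went the other way: Ccr2, Cx3cr1, F13a1 and Ms4a6c had log2 fold changes of 0.68, 2.46, 0.79 and 1.03 without overlap in CPM, and 5 of the 8 monocyte genes tested were above 0, with a median of 0.35. Platelet markers (8 genes, led by Pf4 and Ppbp) summed to 11.7 to 23.1 against 12.2 to 29.1, B cell markers (6 genes, led by Ighm and Cd79a) to 8.30 to 11.2 against 8.30 to 11.9, and T and NK cell markers (8 genes, led by Cd3d and Nkg7) to 29.8 to 48.5 against 26.4 to 37.8. Cd3d held 91.5% of that last sum, and Cd3e, Cd3g, Trac, Cd8a and Nkg7 had group means of at most 0.970 TPM. None of the matched markers was at 0 in every library. The part of these cells in the values of the redox genes was not tested.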

How the data were processed

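Per the submitters' processing notes, the authors quantified reads per transcript with kallisto and used GRCm39. The sources used here do not give its version, index or strand setting, and without strand overlapping antisense reads cannot be separated. Per the file headers, each deposited table gave estimated counts and TPM for 117486 transcripts. Of these, 99.04%, with at least 99.747% of the counts, matched the GENCODE M21 annotation (GRCm38) by identifier. Estimated counts, which cover counting of reads and not of molecules, were summed over transcripts and rounded to whole numbers, and TPM were summed as deposited. No coordinates of these tables are given, and promoter coordinates are those of RefSeq.

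Genes were tested in edgeR 4.0.16 (R 4.3.3; filterByExpr, TMM, robust quasi-likelihood test, group the only term), with Benjamini-Hochberg adjustment over all genes tested and a threshold of 0.05; the step was tested on simulated counts. The test itself gives no SE, so SE were computed from the weights and moderated dispersion of the fit. The 95% intervals were taken from these SE with the t distribution. The common biological coefficient of variation was 13.7%. DESeq2 1.42.0 and limma 3.58.1 (voom), other scalings, filters and summaries, a replicate block and each library left out were alternatives. Chi-square tests found no library to be a copy of another. The genes and lists were chosen with earlier results of these data known. All 32 were to be named, with every library's value for the most abundant gene and the smallest p of each role and for each unadjusted p under 0.05, together with the 3 smallest p of each other pathway list and the 2 most abundant genes of each marker list. Some further genes, Prdx3 among them, are given by library outside this rule, and Csf3r, Ccr2, Cx3cr1, F13a1, Ms4a6c, Prg2 and Epx were named after their values were seen. Nnt, which has 2 gene identifiers, and Ahsp were not matched and are left out. Words of 31 bases shared between transcripts were counted in the reference sequences.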

Additional observations from a re-analysis of the deposited data

How the results depend on the processing

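Genes past an adjusted p of 0.05 numbered 4 by edgeR, 61 with the replicate block, 8 by library size alone, 439 without a filter on low counts, 2 from length-scaled TPM and 110 by DESeq2, and 2 to 22 with 1 library left out (22 without Ly6C-low replicate 3). Of the redox genes, 0 of 30 passed by edgeR. Without a filter 2 of 32 passed (Mgst1 and Gclm, log2 fold changes of 0.41 and 0.45), where 439 of 20580 genes did. By DESeq2 1 of 26 passed (Mgst1, 0.43), where 110 of 7425 genes (1.48%) did. The cause of these differences was not tested. At an unadjusted p under 0.05 there were 2 redox genes (without Ly6C-high replicate 2) to 7 (without Ly6C-low replicate 1) with 1 library left out. In those 2 fits, 8.42% and 14.1% of all genes tested reached that p. The median log2 fold change of the 30 redox genes then ran from -0.0091 (without Ly6C-low replicate 3) to 0.12. Left without its most abundant gene, the summed TPM of a role had a log2 ratio of 0.30, 0.04, -0.21 and -0.09 for glutathione synthesis, the thioredoxin system, peroxiredoxins and dismutases. The sign of the log2 fold change differed under at least 1 alternative for 10 of the 30 genes, none larger in size than 0.104, and stayed the same under every alternative for 20.

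The labels do not say what a replicate number marks. The deviations of same-numbered libraries had correlations of 0.24, -0.04 and 0.24, not all above 0.1, and the libraries of replicate 2 did not correlate best with their own number, so the libraries were not treated as pairs. In the fit with the replicate block, 0 redox genes passed, 6 had an unadjusted p under 0.05 and the median was 0.11. In that fit 18% of all genes tested had an unadjusted p under 0.05. Genes under about 5 CPM, such as Gclc, Gss, Gpx3 and Prdx2, are limited by depth as well as by 3 libraries a group.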
